A study of Mus musculus with 8 samples.

Results

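The Elavl genes encode the Hu proteins, a family of RNA-binding proteins, and were read here as the 4 genes Elavl1, Elavl2, Elavl3 and Elavl4 in the cortex of mice without Nova2. The members were found by name: every probe set that the platform annotation gave to one of these genes alone was taken, which gave 58 probe sets out of 228454 that named a single gene, and no probe set named a member together with another gene. Exon arrays measured total cortical RNA of 4 Nova2 KO mice and 4 wild type mice, all of the CD1 strain and 10 days old (P10), with 1 array for each animal. The labels do not give the part of Nova2 that was deleted, the sex or litter of the mice, or whether the knockout was present in every cell.

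Hu proteins bind U-rich and AU-rich stretches of RNA. In the nucleus they affect the choice of exons and of polyadenylation sites, and in the cytoplasm they raise the stability or translation of many transcripts through the 3' UTR. Elavl1 encodes HuR, which most cell types express, whereas Elavl2 (HuB), Elavl3 (HuC) and Elavl4 (HuD) are largely neuronal in the brain and appear as neurons leave the cell cycle. Nova2 is another neuronal RNA-binding protein with a role in alternative splicing, and the comparison sets the level and the exon usage of the Hu family without Nova2 against those with it.

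The deposited value of a probe set, a short stretch of a transcript read by a few probes, was a log2 signal. Array medians lay between 7.06 and 7.37 log2 in Nova2 KO and between 7.02 and 7.37 log2 in wild type. The share of values at the floor of the scale, within 0.01 of 4 log2, was highest on wild type array 4 (3.34%) and Nova2 KO array 4 (2.20%), against at most 1.53% on the other 6 arrays. Nova2 probe set 5294108 read 6.28, 7.17, 7.26 and 6.73 log2 on the Nova2 KO arrays and 8.87, 8.65, 8.53 and 8.66 log2 on the wild type arrays. It had the lowest p of the 16 Nova2 probe sets and the groups did not overlap, but it did not pass over all probe sets (-1.82 log2, SE 0.22, limma adjusted p = 0.0786). Another 2 Nova2 probe sets, 4414499 (0.70 log2, SE 0.13, limma adjusted p = 0.321) and 4355944 (0.40 log2, SE 0.14, limma adjusted p = 0.700), had all Nova2 KO arrays above all wild type arrays. Over all probe sets that passed the filter on dim signal, 3.05% were separated in this direction and 2.04% in the other. The Nova2 gene value differed by -0.016 log2 (SE 0.11, limma adjusted p = 0.975). The mean over 5 measured markers of cortical excitatory neurons, among them Tbr1, Neurod6 and Slc17a7, lay at 9.42 to 9.70 log2 in Nova2 KO and 9.40 to 9.62 log2 in wild type. That over 6 measured markers of regions other than cortex lay at 8.06 to 8.48 log2 in Nova2 KO and 8.18 to 8.51 log2 in wild type. Signal levels of different genes depend on their probes too, so the tissue is not read from these means. In bulk tissue, fewer cells of a type and less RNA per cell cannot be told apart.

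Of the 58 Elavl probe sets, 52 had a mean signal above 5.86 log2, the 25th percentile of all probe sets, and were kept: 13 of 15 for Elavl1, 15 of 17 for Elavl2, 10 of 10 for Elavl3 and 14 of 16 for Elavl4. The 6 left out averaged 4.22 to 5.57 log2 over the 8 arrays and their highest value on any array was 5.91 log2. Signals of different probe sets depend on their probes as well as on the RNA, so levels are not compared between the members.

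None of the 4 Elavl genes passed the threshold in Nova2 KO cortex. The gene value, the median log2 signal over the kept probe sets of a gene, was tested with limma as Nova2 KO minus wild type over 11992 genes, with Benjamini-Hochberg adjustment at 0.05. By that rule 0.208% of all genes were called. At an unadjusted p under 0.05, which 11.6% of all genes reached (7.86% with a higher value in Nova2 KO), Elavl4 was the 1 member of the 4. All 4 members had a difference above 0, as did 55.4% of all genes. In no member did the 4 Nova2 KO gene values lie apart from the 4 wild type gene values, a separation found in 7.56% of all genes.

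Elavl4, which encodes HuD, a stabiliser of transcripts of neurite growth, had the largest difference of the 4 gene values, although by the mean over probe sets that of Elavl2 was larger (0.27 log2, against 0.13 log2 for Elavl4). Its gene value was 9.47, 9.40, 9.74 and 9.27 log2 on the Nova2 KO arrays and 9.01, 9.33, 9.32 and 9.17 log2 on the wild type arrays. Nova2 KO array 4 lay below wild type arrays 2 and 3, so the groups overlapped. The difference was 0.26 log2 (SE 0.12, n = 4 arrays in each group, limma adjusted p = 0.425, unadjusted p = 0.0481), or 1.20-fold, and the 95% interval was 0.0025 to 0.53 log2.

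Elavl3, which encodes HuC and marks young and mature neurons, was at 10.89, 10.90, 10.84 and 10.62 log2 in Nova2 KO and at 10.73, 10.71, 10.75 and 10.65 log2 in wild type. Nova2 KO arrays 1, 2 and 3 lay above all wild type arrays, and Nova2 KO array 4 lay below all of them. The difference was 0.10 log2 (SE 0.098, limma adjusted p = 0.728, 95% interval -0.11 to 0.31 log2).

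Elavl2, which encodes HuB, was at 9.17, 9.31, 9.55 and 9.41 log2 in Nova2 KO and at 9.45, 9.13, 9.33 and 9.39 log2 in wild type. The arrays of the groups were interleaved. The gene value differed by 0.035 log2 (SE 0.11, limma adjusted p = 0.942, 95% interval -0.21 to 0.28 log2).

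Elavl1, the member of the family that most cell types express, was at 9.54, 9.79, 9.67 and 9.37 log2 in Nova2 KO and at 9.53, 9.67, 9.54 and 9.58 log2 in wild type. The Nova2 KO arrays held both the highest and the lowest value. The difference was 0.013 log2 (SE 0.11, limma adjusted p = 0.979, 95% interval -0.22 to 0.25 log2). As fold changes, the 4 intervals ran from 0.859 to 1.19 for Elavl1, from 0.864 to 1.21 for Elavl2, from 0.927 to 1.24 for Elavl3 and from 1.002 to 1.44 for Elavl4.

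**Figure D1:**
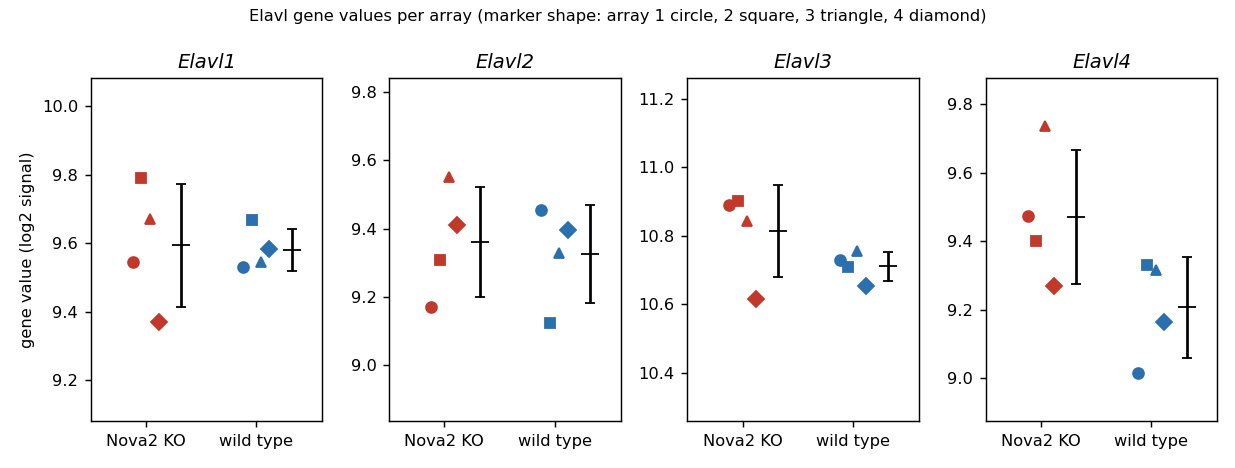
Gene value in log2 signal of Elavl1, Elavl2, Elavl3 and Elavl4 on every array, Nova2 KO in red at the left and wild type in blue at the right of each panel, with the mean and SD in black. All panels span 1 log2 unit. The groups overlap in each panel, and the means are furthest apart for Elavl4 (9.47 in Nova2 KO and 9.21 log2 in wild type).

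Whether the members differed from each other in their change was tested with the difference between 2 gene values on the same array, with an exact two-sided permutation test over the 8 arrays for each of 6 pairs. The smallest p that 4 against 4 arrays can give is 0.0286, and 1 pair alone at that p would have 0.171 after adjustment over the 6, so a single pair could not pass. The lowest of the 6 was that of Elavl4 minus Elavl1, at -0.12 ± 0.19 log2 in Nova2 KO and -0.37 ± 0.12 log2 in wild type (mean ± SD, n = 4 each), a difference of 0.25 log2 (exact permutation p = 0.0857, 0.386 after adjustment over the 6 pairs). Elavl4 minus Elavl2 differed by 0.23 log2 (exact p = 0.257) and Elavl4 minus Elavl3 by 0.16 log2 (exact p = 0.229). The remaining pairs differed by 0.089 log2 (Elavl3 minus Elavl1), 0.068 log2 (Elavl3 minus Elavl2) and 0.021 log2 (Elavl2 minus Elavl1). No pair passed, which in this design says little about whether the members changed equally. With the mean over probe sets as the gene value, Elavl2 minus Elavl1 differed by 0.36 log2 and Elavl3 minus Elavl1 by 0.20 log2. Both were then at the smallest exact permutation p that the design can give (0.0286), which is 0.0857 after adjustment over the 6 pairs.

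At the level of single probe sets, none of the 52 kept Elavl probe sets passed over all 293697 that were tested (lowest limma adjusted p 0.699), where 0.00681% of all probe sets were called. At an unadjusted p under 0.05, 7 of the 52 passed, 6 of them higher and 1 lower in Nova2 KO. Over all probe sets 6.68% did so, 3.9% higher and 2.78% lower. In 7 of the 52, all 4 Nova2 KO arrays lay above all 4 wild type arrays, against 3.05% of all probe sets, and in none did they lie below, against 2.04%. A higher mean in Nova2 KO was found for 38 of the 52, against 51.1% of all probe sets. The 7 without overlap were 5 of Elavl2, 1 of Elavl3 and 1 of Elavl4. Probe sets of 1 gene share the same transcripts and arrays, so they are not independent readings.

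**Figure D2:**
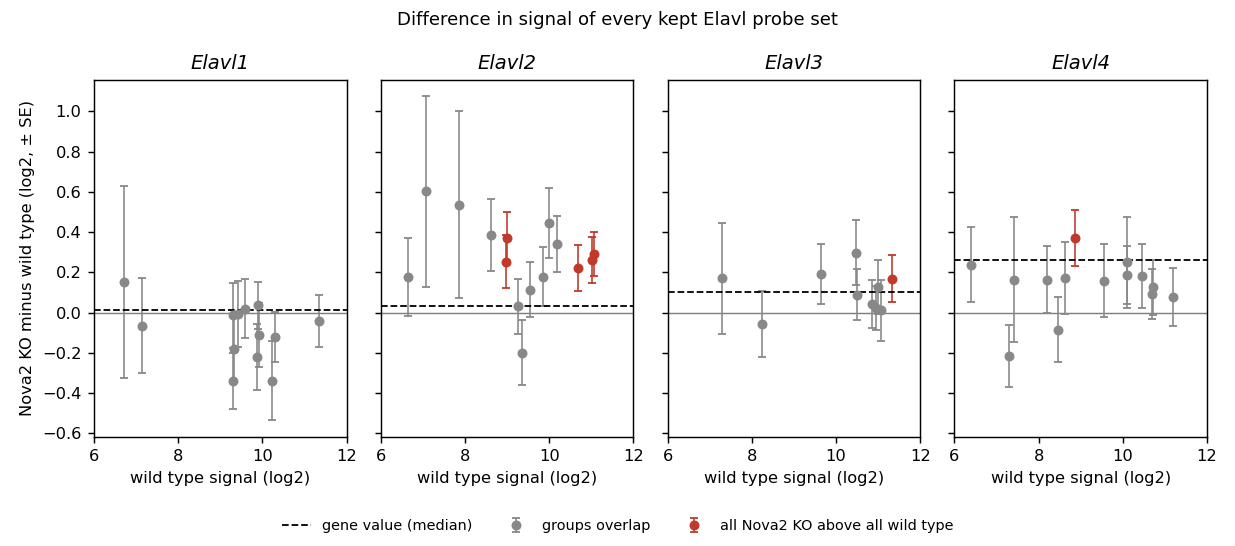
Nova2 KO minus wild type difference (log2, bars are SE) of each of the 52 kept Elavl probe sets against its mean wild type signal (log2), 1 panel per gene. Red points are probe sets in which all 4 Nova2 KO arrays lay above all 4 wild type arrays, grey points those whose groups overlap, and the dashed line is the difference of the gene value. In Elavl2, 14 of 15 points lie above 0 although the gene value differs by 0.035 log2.

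In Elavl2 the probe sets and the gene value disagreed in size. Of its 15 kept probe sets, 14 had a higher mean in Nova2 KO, with a median difference of 0.26 log2 and a range of -0.20 to 0.60 log2, whereas the gene value differed by 0.035 log2. The brightest, 4359461, read 11.25, 11.36, 11.33 and 11.44 log2 in Nova2 KO and 11.10, 11.05, 11.02 and 11.05 log2 in wild type. All Nova2 KO arrays lay above all wild type arrays, with a difference of 0.29 log2 (SE 0.11, limma adjusted p = 0.713). Probe set 4475725 was separated in the same way, at 9.17, 9.31, 9.55 and 9.41 log2 in Nova2 KO and 9.04, 9.07, 8.86 and 8.99 log2 in wild type, a difference of 0.37 log2 (SE 0.13, limma adjusted p = 0.699).

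Named after their values were seen, the other 3 separated Elavl2 probe sets were 4486091 (0.26 log2, SE 0.11), 5085345 (0.22 log2, SE 0.11) and 4320194 (0.25 log2, SE 0.13). Another 2, 5137763 (0.34 log2, SE 0.14) and 4526745 (0.45 log2, SE 0.17), also named after their values were seen, had an unadjusted p under 0.05 but overlapped. The 5 brightest Elavl2 probe sets were all higher in Nova2 KO, with a median difference of 0.29 log2, and 3 of them did not overlap between the groups. Among the 10 dimmer ones 9 were higher, with a median of 0.22 log2. Over all probe sets 51.1% were higher, and 3.05% had all Nova2 KO arrays above all wild type arrays. The probe sets of Elavl2 share transcripts and arrays, so these counts are not of independent readings.

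The 2 Elavl2 probe sets with the largest differences also had the 2 largest SEs of the gene. Probe set 4814240 read 7.59, 8.38, 8.08 and 6.65 log2 in Nova2 KO and 6.65, 7.78, 7.81 and 6.06 log2 in wild type (difference 0.60 log2, SE 0.47). Probe set 5139040 read 8.36, 8.74, 8.61 and 7.83 log2 in Nova2 KO and 7.89, 8.79, 8.36 and 6.36 log2 in wild type (difference 0.54 log2, SE 0.47). Array 4 was the lowest of each group for both, which are the arrays with the highest share of values at the floor. The Elavl2 gene value, a median, fell on neither of these probe sets, so it does not show how far they rest on array 4. Without both arrays numbered 4, the Elavl2 gene value differed by 0.041 log2.

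The gene value of Elavl2 was set by different probe sets in the 2 groups. On all 4 Nova2 KO arrays the median of the 15 fell on 4475725. On wild type arrays 2, 3 and 4 it fell on 4553758, which differed by 0.032 log2 in signal (SE 0.14), and on wild type array 1 on 5333094. Probe set 5333094 was the 1 of 15 that was lower in Nova2 KO, at 9.05, 9.23, 8.96 and 9.35 log2 in Nova2 KO and 9.45, 9.01, 9.32 and 9.61 log2 in wild type (-0.20 log2, SE 0.16, limma adjusted p = 0.871). In wild type these 3 had mean signals of 8.99 (4475725), 9.27 (4553758) and 9.35 log2 (5333094).

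With the mean over the 15 probe sets in place of the median, Elavl2 was at 9.48, 9.60, 9.56 and 9.53 log2 in Nova2 KO and at 9.19, 9.41, 9.38 and 9.12 log2 in wild type. On that scale all 4 Nova2 KO arrays lay above all 4 wild type arrays, as they did in 6.34% of all genes. The difference was 0.27 log2 (SE 0.084, 95% interval 0.083 to 0.45 log2), with a limma unadjusted p of 0.00842 and adjusted p of 0.244, so Elavl2 was not called by this summary either. By this summary 0.217% of all genes were called, and 8.71% had an unadjusted p under 0.05 with a higher value in Nova2 KO. By the mean, Elavl1 differed by -0.095, Elavl3 by 0.11 and Elavl4 by 0.13 log2.

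**Figure D3:**
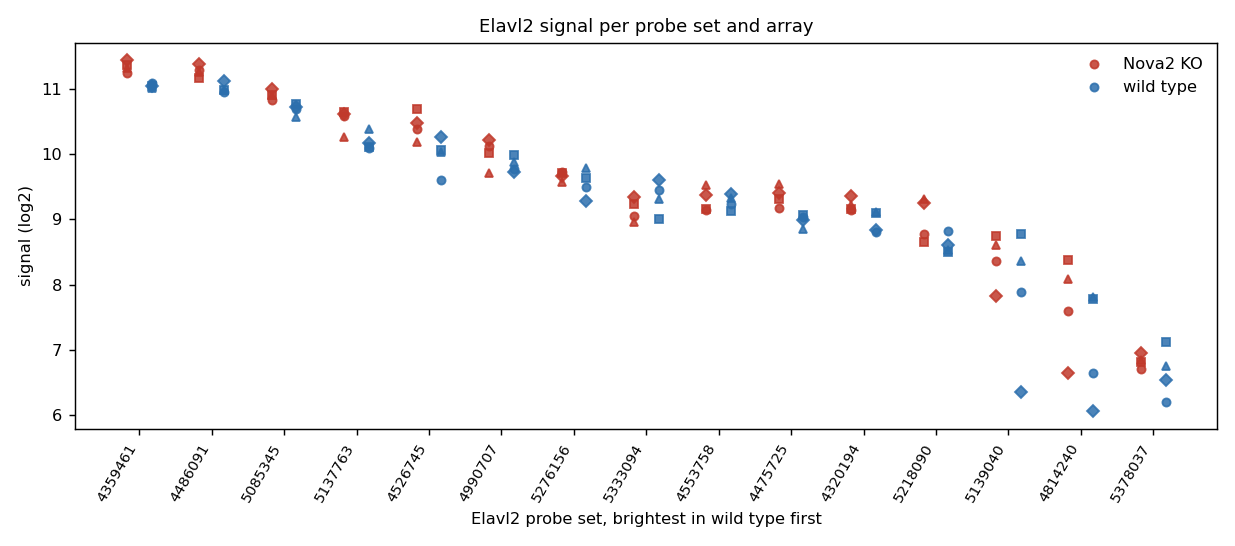
Signal (log2) of the 15 kept Elavl2 probe sets on every array, brightest in wild type at the left, with Nova2 KO in red left of wild type in blue (circle array 1, square array 2, triangle array 3, diamond array 4). The red points lie above the blue ones without overlap for 4359461, 4486091, 5085345, 4475725 and 4320194, and below them on average for 5333094 alone.

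In Elavl4, 12 of 14 kept probe sets had a higher mean in Nova2 KO, with a median difference of 0.16 log2 and a range of -0.22 to 0.37 log2. On all 8 arrays the gene value was the mean of probe sets 4354837 and 4472745, the middle pair of the 14. Probe set 4472745 had the largest difference of the gene and was the 1 whose groups did not overlap, at 9.12, 9.36, 9.36 and 9.11 log2 in Nova2 KO and 8.60, 8.96, 8.96 and 8.96 log2 in wild type (0.37 log2, SE 0.14, limma adjusted p = 0.713). The lowest of the 8 was wild type array 1. Probe set 4354837, named after its values were seen, differed by 0.16 log2 (SE 0.18).

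The difference of 0.26 log2 in the Elavl4 gene value was larger than that of 13 of its 14 probe sets, 4472745 being the exception. The brightest, 5177411, read 11.37, 11.18, 11.44 and 11.05 log2 in Nova2 KO and 11.23, 11.35, 11.23 and 10.92 log2 in wild type (0.079 log2, SE 0.15). With the filter at the 50th percentile of all probe sets, the Elavl4 gene value differed by 0.14 log2, and with the mean over probe sets by 0.13 log2. Without Nova2 KO array 3, on which Elavl4 was highest, it differed by 0.18 log2.

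In Elavl3, 9 of 10 probe sets had a higher mean in Nova2 KO, by up to 0.30 log2, and the lowest difference was -0.058 log2. The brightest, 4604314, did not overlap between the groups, at 11.48, 11.55, 11.54 and 11.42 log2 in Nova2 KO and 11.36, 11.17, 11.41 and 11.38 log2 in wild type (0.17 log2, SE 0.12, limma adjusted p = 0.841). The lowest Nova2 KO array lay just above the highest wild type array. Probe set 5538377 had the largest difference of the gene (0.30 log2, SE 0.16), with 10.79, 10.83, 10.98 and 10.47 log2 in Nova2 KO and 10.61, 10.50, 10.62 and 10.16 log2 in wild type, and array 4 lowest in both groups.

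In Elavl1 most probe sets lay on the other side, with 10 of 13 lower in Nova2 KO, a median difference of -0.065 log2 and a range of -0.34 to 0.15 log2. The gene value, at 0.013 log2, had the opposite sign to that median, and it fell on the other side of 0 in 7 of 17 other settings. Probe set 4622524 read 8.99, 9.26, 8.86 and 8.76 log2 in Nova2 KO and 9.21, 9.32, 9.38 and 9.30 log2 in wild type. Nova2 KO array 2 reached into the wild type range, and the difference was -0.34 log2 (SE 0.14, limma adjusted p = 0.731). Probe set 4814294 differed by the same amount (-0.34 log2, SE 0.20), with Nova2 KO array 3 at 9.36 log2, the other 3 Nova2 KO arrays at 9.95 to 10.14 log2 and wild type at 10.04 to 10.47 log2. Without Nova2 KO array 3 it differed by -0.16 log2. The brightest probe set, 5592728, differed by -0.042 log2 (SE 0.13). The dimmest, 4460713, differed by 0.15 log2 (SE 0.48) and ranged from 5.95 to 7.45 log2 in Nova2 KO and from 5.34 to 7.39 log2 in wild type.

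Exon usage was read from an index, which subtracts the gene value from the log2 signal of each probe set, array by array. The index shows whether a stretch of the transcript gained or lost signal relative to the gene, and a gene value that moves shifts the index of every probe set. None of the 52 Elavl probe sets passed over the 195014 tested (lowest limma adjusted p 0.617), where 0.0133% of all were called. At an unadjusted p under 0.05 the index of 6 of the 52 passed, against 6.76% of all probe sets. The index was higher in Nova2 KO for 22 of the 52, against 49.8% of all. All 4 Nova2 KO values lay above all 4 wild type values for 1 of the 52, against 2.07% of all probe sets, and below them for 2, against 2.05%. The 1 above was Elavl2 4475725, which on the Nova2 KO arrays was itself the gene value.

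For Elavl1, the index of 4622524 was -0.55, -0.53, -0.81 and -0.61 log2 in Nova2 KO and -0.32, -0.34, -0.16 and -0.28 log2 in wild type. The groups did not overlap, and the index differed by -0.35 log2 (SE 0.097, limma adjusted p = 0.617, unadjusted p = 0.00572). This was the lowest p of the family, and the signal of the probe set itself differed by nearly as much. The indices of 4814294 (-0.35 log2, SE 0.21) and 4535953 (-0.24 log2, SE 0.13) were lower as well. The 2 highest Elavl1 indices were those of 4460713 (0.14 log2, SE 0.45) and 4442922 (0.023 log2, SE 0.11).

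For Elavl4, probe set 5353391 had an index of -2.35, -2.75, -2.44 and -2.05 log2 in Nova2 KO and -1.74, -2.05, -1.998 and -1.89 log2 in wild type. All Nova2 KO values lay below all wild type values, and the difference was -0.48 log2 (SE 0.15, limma adjusted p = 0.661). Its own signal was 7.13, 6.65, 7.30 and 7.21 log2 in Nova2 KO and 7.28, 7.28, 7.32 and 7.28 log2 in wild type, a difference of -0.22 log2 (SE 0.16). The remainder of the index difference came from the higher gene value. The same holds for 5009844, whose index differed by -0.35 log2 (SE 0.14) and whose signal differed by -0.084 log2 (SE 0.16). In all, 13 of the 14 Elavl4 indices were lower in Nova2 KO, although 12 of the 14 signals were higher. The exception was 4472745, which takes part in the gene value, at 0.11 log2 (SE 0.11), and the next highest indices were those of 5571771 (-0.013 log2, SE 0.17) and of 5094331, the dimmest (-0.025 log2, SE 0.17).

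For Elavl2, the index of 4475725 was 0 on the 4 Nova2 KO arrays, where the probe set itself was the median, and -0.41, -0.053, -0.47 and -0.41 log2 on the wild type arrays, a difference of 0.34 log2 (SE 0.11, limma adjusted p = 0.666). Indices of 5218090 (0.35 log2, SE 0.12) and 4359461 (0.26 log2, SE 0.11) also had an unadjusted p under 0.05. The highest, of 4814240 (0.57 log2, SE 0.52) and 5139040 (0.50 log2, SE 0.51), rested on the variable signals given above, and the lowest were those of 5333094 (-0.23 log2, SE 0.14) and 4553758 (-0.0022 log2, SE 0.090). The dimmest probe set, 5378037, had an index difference of 0.14 log2 (SE 0.23). With the mean over probe sets as the gene value, the index of 4475725 differed by 0.10 log2 and that of 5218090 by 0.12 log2.

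Elavl3 had 5 indices higher and 5 lower in Nova2 KO, between -0.16 log2 (4485651, SE 0.16) and 0.20 log2 (5538377, SE 0.12). The indices of 4423114 (-0.091 log2, SE 0.12), 4769771 (0.089 log2, SE 0.10), 4604314 (0.067 log2, SE 0.095) and the dimmest, 4682273 (0.068 log2, SE 0.24), lay between them. No Elavl3 index had an unadjusted p under 0.05, and none separated the groups.

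**Figure D4:**
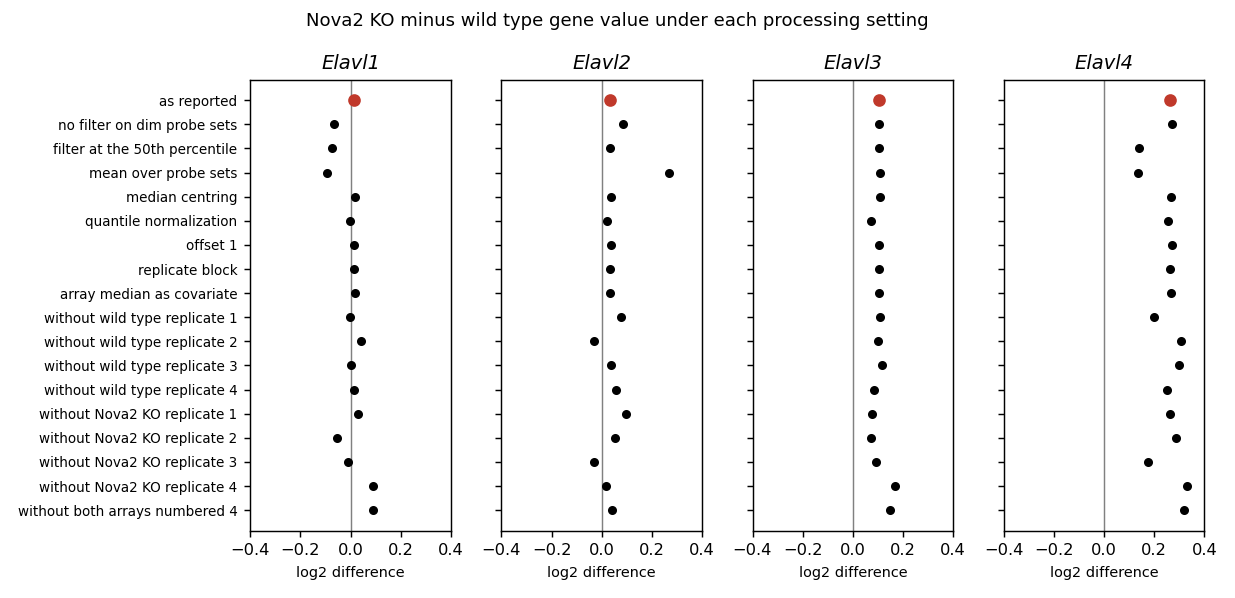
Nova2 KO minus wild type difference (log2) of the Elavl1, Elavl2, Elavl3 and Elavl4 gene values under each processing setting, with the value as reported in red at the top. Elavl3 and Elavl4 stay above 0 in each setting, Elavl1 lies on both sides of 0, and Elavl2 moves to 0.27 log2 with the mean over probe sets.

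Other proteins that bind AU-rich or other elements of the 3' UTR were read beside the family. This list and those below were chosen with earlier results of these data known, so their counts are descriptions and not tests. Of 15 listed genes 11 were measured and none passed (limma), against 0.208% of all genes. An unadjusted p under 0.05 (limma) was found for 1, against 11.6% of all genes. Of the 11, 9 were above and 2 below 0, where 55.4% of all genes were above 0. Their median difference was 0.069 log2, beside 0.022 log2 over all genes. The lowest p was that of Hnrnpd, which encodes AUF1, a protein that promotes decay of AU-rich transcripts. Hnrnpd was at 10.08, 10.07, 10.31 and 10.10 log2 in Nova2 KO and 9.92, 9.91, 9.97 and 9.81 log2 in wild type, a difference of 0.24 log2 (SE 0.096, limma adjusted p = 0.364). All Nova2 KO arrays lay above all wild type arrays, as in 5.06% of all genes, and Nova2 KO array 3 was the highest of its group. Hnrnpdl, a paralog, differed by 0.24 log2 (SE 0.13), Hnrnpab by 0.15 log2 (SE 0.094) and the poly(A)-binding protein gene Pabpc1 by 0.11 log2 (SE 0.098).

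Transcripts with a reported dependence on Hu proteins went both ways. Of 19 listed genes 16 were measured and none passed (limma), against 0.208% of all genes. An unadjusted p under 0.05 was found for 7, against 11.6% of all genes, and 11 were above and 5 below 0, against 55.4% of all genes above 0. Hnrnpd is on this list as well and is 1 of the 7. The median was 0.12 log2. Mapt, which encodes the microtubule-binding protein tau, was at 11.15, 10.80, 11.25 and 10.96 log2 in Nova2 KO and 10.79, 10.59, 10.46 and 10.57 log2 in wild type. All Nova2 KO arrays lay above all wild type arrays (0.44 log2, SE 0.12, limma adjusted p = 0.236). Nova1, the paralog of Nova2, was separated in the same direction (0.38 log2, SE 0.11, adjusted p = 0.251 with limma). Such a separation, with Nova2 KO higher, was found in 5.06% of all genes. Nrn1, which encodes the neurite growth factor neuritin, differed by -0.35 log2 (SE 0.11) and the kinase gene Camk2a by -0.35 log2 (SE 0.11), and in neither did the call pass. Named after its value was seen, Gap43, a growth cone protein gene whose transcript HuD binds, differed by 0.17 log2 (SE 0.098).

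In exon usage, 1 of 327 probe sets in 15 genes of the Hu-dependent list passed, against 0.0133% of all. Because the list was chosen with earlier results known, this count is not read as a trait of Hu-dependent transcripts. It was 5060679 of Ank3, the ankyrin-G gene, whose signal was 9.96, 9.80, 9.54 and 9.22 log2 in Nova2 KO and 7.05, 7.13, 6.93 and 6.71 log2 in wild type. The index rose by 2.75 log2 (SE 0.14, limma adjusted p = 0.00361). An unadjusted p under 0.05 (limma) was found for 30 of the 327 (9.17%), against 6.76% of all probe sets. None of the 253 probe sets of the other 3' UTR binding proteins passed in exon usage. Of these, 15 (5.93%) had an unadjusted p under 0.05 with limma, against the same 6.76%.

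Because Elavl2, Elavl3 and Elavl4 are neuronal, marker lists were read beside them. Over all genes 0.208% passed, 11.6% had an unadjusted p under 0.05 and 55.4% were above 0. General neuron markers had 4 genes above and 4 below 0 of 8 measured (median -0.029 log2). Of these, 3 had an unadjusted p under 0.05 (limma), all lower in Nova2 KO: Syn1 (-0.25 log2), Nefl (-0.40 log2) and Nefm (-0.32 log2). The mean of the list lay at 11.27 to 11.46 log2 in Nova2 KO and 11.40 to 11.52 log2 in wild type. Markers of immature neurons were above 0 in 9 of 9 measured genes (median 0.30 log2), with 6 at an unadjusted p under 0.05 and 1 past the threshold (limma). Their mean lay at 10.90 to 10.97 log2 in Nova2 KO and 10.57 to 10.65 log2 in wild type. The called gene, Dcx of migrating neurons, rose to 10.56 to 10.79 log2 in Nova2 KO, against 9.63 to 10.09 log2 in wild type (0.81 log2, SE 0.11, limma adjusted p = 0.0133), and its call was lost in 5 of 17 other settings. Markers of oligodendrocytes and myelin were below 0 in 11 of 12 measured genes (median -0.36 log2). Of the 12, 8 had an unadjusted p under 0.05 and 2 passed the threshold (limma). The mean of this list lay at 8.76 to 8.99 log2 in Nova2 KO and 9.16 to 9.29 log2 in wild type. The 2 called genes, Mal and Mog, which encode myelin proteins, fell by 1.03 log2 (SE 0.16, limma adjusted p = 0.0251) and by 0.77 log2 (SE 0.13, limma adjusted p = 0.0301), and the calls were lost in 10 and 11 of 17 other settings. The part of these markers in the Elavl differences was not tested.

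Mature neuron markers had a median of -0.19 log2 (3 of 8 above 0), astrocyte markers -0.071 log2 (2 of 8), microglial markers -0.18 log2 (1 of 7) and markers of endothelium and pericytes -0.10 log2 (1 of 8). Markers of regions other than cortex had a median of -0.047 log2 (1 of 6 above 0). None of these lists held a called gene (limma; 2, 0, 2, 1 and 0 genes had an unadjusted p under 0.05, in this order). Camk2a, 1 of the 2 mature neuron genes, is also on the Hu-dependent list. Markers of cortical excitatory neurons had a median of 0.18 log2, with 3 of 5 above 0. Of these 5, 1 had an unadjusted p under 0.05 (limma) and none was called.

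As a description over the 8 arrays, the genes whose values ran most like those of each member were found by Pearson correlation. For Elavl4 these were Fam124a (r = 0.986), Atraid (0.964) and Meaf6 (0.958). For Elavl3 they were 1700066M21Rik (0.979), Bzw2 (0.978) and Smyd5 (0.971). For Elavl2 they were Six2 (0.960), Borcs5 (0.939) and Timm17a (0.924), and for Elavl1 Mns1 (0.960), Apex2 (0.933) and Chsy1 (0.923). The arrays are shared by all genes, and the closest of 11992 genes over 8 points will have a high r.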

How the data were processed

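The authors deposited 1 log2 value per probe set and array for 391597 probe sets, made with PLIER per the submitters' processing notes; its version, the normalization and the genome build are not given in the sources used here, and the deposited values were left as they were. Gene names came from the platform annotation, with 2203 of 13017 symbols updated through RefSeq names of assembly GRCm38.p6. Those with a mean above the 25th percentile (293697) were kept. Gene values needed 3 or more and the index 5 or more kept probe sets that named 1 gene alone. The index fit included 307 probe sets without variance. Tests used R 4.3.3 with limma 3.58.1 (lmFit and eBayes, two-sided, Benjamini-Hochberg at 0.05) and the data.table package, version 1.17.8. Plots used Python 3.11.15 and matplotlib 3.10.9. The functions were tested on simulated data. Precision is limited by the number of arrays.

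The members and lists were chosen with earlier results of these data known. The rule for named probe sets took, per gene, the 2 highest and 2 lowest index differences, the 3 lowest p and the brightest and dimmest in wild type. From each list up to 4 genes with the lowest p were named, and per member the 3 genes with the highest correlation. Genes and probe sets named outside the rule are marked as such. Other settings covered the filter, the summary, the scaling, the offset, covariates and arrays left out.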

Additional observations from a re-analysis of the deposited data

Results flagged for a closer look

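In 76 groups of 4 arrays, over the Elavl gene values, the named Elavl probe sets and the named genes of the lists of 3' UTR binding proteins and of Hu-dependent transcripts, 5 held an array that stood apart from the other 3 by Dixon's test, and chance gives about 1 in 20. For Elavl4 probe set 4472745, wild type array 1 was at 8.60 log2 and the other wild type arrays at 8.96 log2. For Elavl4 probe set 5353391, wild type array 3 was at 7.32 log2 and the others at 7.28 log2, a gap of small size. For Hnrnpd, Nova2 KO array 3 was at 10.31 log2, against 10.07 to 10.10 log2 on the others. For Hnrnpdl, the same array was at 10.62 log2, against 10.34 to 10.36 log2. For Camk2a, Nova2 KO array 1 was at 11.56 log2, against 11.32 to 11.33 log2. None of the Elavl gene values themselves had such an array.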

How the results depend on the processing

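No Elavl gene value or named probe set passed the threshold under any setting run, with the lowest limma adjusted p of a gene value at 0.189 (Elavl4). For pairs of members the adjusted threshold was out of reach of a single pair with 4 arrays in each group (0.171 at best), and with 3 in each group the smallest exact p is 0.1, so nothing is read from their not passing. The Elavl3 and Elavl4 gene values stayed above 0 in all 17 settings, at 0.072 to 0.17 log2 and 0.13 to 0.33 log2. The cause of the changes below was not tested.

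The Elavl1 gene value turned to -0.067 log2 without a filter, -0.073 log2 with the filter at the 50th percentile, -0.095 log2 when probe sets were averaged and -0.00054 log2 with quantile normalization. Leaving out single arrays gave -0.052 to 0.088 log2 for Elavl1 and -0.032 (without wild type 2) to 0.098 log2 for Elavl2. Averaging probe sets put the pair Elavl4 minus Elavl2 at -0.13 and Elavl3 minus Elavl2 at -0.16 log2, and moved Elavl2 minus Elavl1 to 0.36 and Elavl3 minus Elavl1 to 0.20 log2, and Elavl2 minus Elavl1 at -0.048 log2 without both arrays numbered 4. Leaving out single arrays gave -0.022 to 0.15 log2 for Elavl3 minus Elavl2 and -0.074 to 0.10 log2 for Elavl2 minus Elavl1.

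Counts over all features moved more. Genes past the threshold numbered 25 as reported, 13 with median centring, 54 with the array median as a covariate, 12 without both arrays numbered 4 and, leaving out single arrays, 6 (wild type 1) to 16 (wild type 4). Exon usage probe sets numbered 26 as reported, 15 without a filter, 43 with the mean over probe sets, 506 with diffSplice, 2 without both arrays numbered 4 and, leaving out single arrays, 10 (wild type 3) to 16 (Nova2 KO 1). Single probe sets numbered 20 as reported, 6 without a filter, 88 with the filter at the 50th percentile, 85 with median centring, 86 with quantile normalization, 6 with offset 1, 184 with the array median as a covariate, 2 without both arrays numbered 4 and, leaving out single arrays, 0 (wild type 1) to 9 (Nova2 KO 4).

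Small index and signal differences changed sign. With the mean over probe sets, indices were 0.053 (Elavl1 5592728), -0.0049 (Elavl2 4486091), -0.045 (5085345), -0.014 (4320194), -0.090 (5378037), 0.12 (Elavl4 5571771) and 0.10 log2 (5094331). With diffSplice the same 7 were 0.057, -0.0053, -0.048, -0.015, -0.097, 0.13 and 0.11 log2. The index of 5592728 was 0.025 log2 without a filter and 0.031 log2 with the filter at the 50th percentile, which put 5571771 at 0.11 log2. Offset 1 put 5094331 at 0.015 log2. Quantile normalization put the signal of Elavl3 4423114 at -0.020 log2. Without both arrays numbered 4, Elavl1 4460713 was at -0.089 log2 in index and -0.00077 log2 in signal, and the index of Elavl2 4553758 at 0.011 log2. Leaving out single arrays gave index ranges of -0.12 to 0.019 (5592728), -0.030 to 0.11 (4442922), -0.32 to 0.38 (4460713), -0.057 to 0.030 (4553758), -0.018 to 0.88 (5139040), -0.051 to 0.37 (5378037), -0.12 to 0.20 (4682273), -0.12 to 0.081 (5571771) and -0.13 to 0.075 log2 (5094331). Signal ranges were -0.089 to 0.032 (5592728), -0.0078 to 0.071 (4442922), -0.30 to 0.45 (4460713), -0.045 to 0.082 (4553758), -0.077 to 0.077 (4423114), -0.19 to 0.038 (4485651), -0.032 to 0.36 (4682273) and -0.0084 to 0.15 log2 (5177411).

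The titles number the arrays of both groups 1 to 4, and the design text names no pairing. Deviations of same-numbered arrays from their group means correlated at 0.14, 0.33, 0.024 and 0.57 over gene values, all above 0. Nova2 KO 1 correlated best with wild type 2 (0.17) and Nova2 KO 3 with wild type 4 (0.063), whereas Nova2 KO 2 and 4 did so with the same number. Wild type 1, 2 and 4 correlated best with the Nova2 KO array of the same number, and wild type 3 with Nova2 KO 2 (0.28). Differently numbered arrays ran from -0.46 (Nova2 KO 2 with wild type 4) to 0.28 (Nova2 KO 2 with wild type 3). The numbers were not taken as pairs because no label names a pairing. Whether arrays of the same number shared a batch was not tested. With the replicate number as a block, 80 genes, 4 exon usage probe sets and 7 single probe sets passed, and no Elavl gene value did. Of the immature neuron markers, only the 4 with the lowest p were followed across settings. Among these the block added Dpysl3 to Dcx (0.45 log2, limma adjusted p = 0.0497, against 0.131 without it).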
